A study of Homo sapiens with 2 samples.

Results

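Matrix metalloproteinases (MMPs), the related ADAMTS proteases and the tissue inhibitors of metalloproteinases (TIMPs) were examined in RNA of D407 cells, an established human cell line labelled as retinal pigment epithelium (RPE). The genes were chosen by name alone, as every gene of the deposited table whose symbol is MMP, TIMP or ADAMTS followed by its number, with a letter allowed after an MMP number. This gave 47 of the 37364 genes listed, namely 24 MMP, 19 ADAMTS and 4 TIMP genes. The study compared 1 library from D407 cells given clusterin, a secreted chaperone glycoprotein, with 1 library from control cells of the same line. Both were poly(A)-selected RNA of cells grown in serum-containing medium. The labels describe the clusterin treatment only for a viability assay on nearly confluent cells, and neither dose nor duration is given in the sources used here. With 1 library per group there was no replicate check, no test between groups was possible, and each difference below is one between 2 libraries. In bulk RNA, fewer cells of a type and less RNA per cell cannot be told apart.

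MMPs are zinc-dependent enzymes that are made as inactive precursors and cut collagens, laminins, proteoglycans and cell surface proteins. ADAMTS proteases share the metalloprotease fold but carry thrombospondin-type repeats that hold them in the matrix, and several of them trim procollagens or cut large proteoglycans such as aggrecan and versican. TIMPs bind the active site and block it, with TIMP3 also inhibiting several ADAMTS enzymes. In the eye the RPE lies on Bruch's membrane, whose turnover depends on the balance between these enzymes and inhibitors, and TIMP3 is deposited in that membrane and is the gene of Sorsby fundus dystrophy.

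Levels are given in RPKM, which divides the reads of a gene by its transcript length and by the size of the library. The totals recovered from the deposited levels were 38236993 reads for control and 33177089 for clusterin; a counted read may stand for a single read or a pair. Ratios of levels carry a 95% exact (Clopper-Pearson) interval that covers counting error only. A gene is called measured here where its mean over the libraries reached 1 RPKM. Over the 13244 measured genes, the median ratio of clusterin to control was 0.953, so a ratio slightly below 1 is the common state of these libraries. Counting error was also not the whole spread: among 8056 genes with 500 to 6000 reads, the interval missed that median ratio for 23.2%, where counting error alone would give about 5%. Of 10 RPE markers, 5 were listed at 0 in both libraries, RPE65, RLBP1, LRAT, TTR and TYR, and 3 were measured, BEST1, MITF and STRA6; the summed level of the list was 20.9 RPKM in control and 20.7 with clusterin. The epithelial keratins KRT7, KRT8, KRT18 and KRT19 had mean levels of 101 to 413 RPKM. The epithelial markers other than keratins were nearly absent, with EPCAM at 0 and CDH1 at 3 and 4 reads. Of 8 fibroblast and smooth muscle markers 3 were measured (summed level 74.8 and 73.2 RPKM, with PDGFRA and THY1 at 0), of 6 leukocyte markers 1 (6.26 and 6.09, with PTPRC at 0) and of 5 endothelial markers none (1.01 and 0.975, with KDR and TEK at 0). Most of the fibroblast and smooth muscle sum came from LUM, at 46.2 RPKM in control and 45.7 with clusterin, and DCN, at 25.9 and 24.9. Most of the endothelial sum came from CDH5, at 0.969 and 0.927 RPKM. The part of other cell types in the results was not tested.

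TIMP transcripts outweighed MMP and ADAMTS transcripts in both libraries. The 4 TIMP genes summed to 94.3 RPKM in control and 88.6 with clusterin, and the 43 MMP and ADAMTS genes together to 21.1 and 19.6. The ratio of the inhibitor sum to the protease sum was 4.47 in control and 4.53 with clusterin. This protease sum leaves out the membrane ADAM proteases described below, which reached 114 and 108 RPKM, more than the TIMP genes. In reads not divided by transcript length, the ratio of the TIMP sum to the MMP and ADAMTS sum was 1.86 in control and 1.93 with clusterin. Of the 47 genes, 8 were measured, with 628 to 5081 reads each over both libraries. Another 17 lay above 0 with a mean below 1 RPKM, with 17 to 372 reads and a median of 67. The remaining 22 of 47 were listed at 0 in both libraries, against a background of 44.8% of all genes. Of the 46 that code for protein 21 were at 0, against 27.7% of all protein-coding genes matched by symbol. A listed 0 does not prove absence: no gene in the table had fewer than 6 recovered reads in all, and the table also lists 0 for RPS18, which encodes a subunit of the ribosome.

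**Figure D1:**
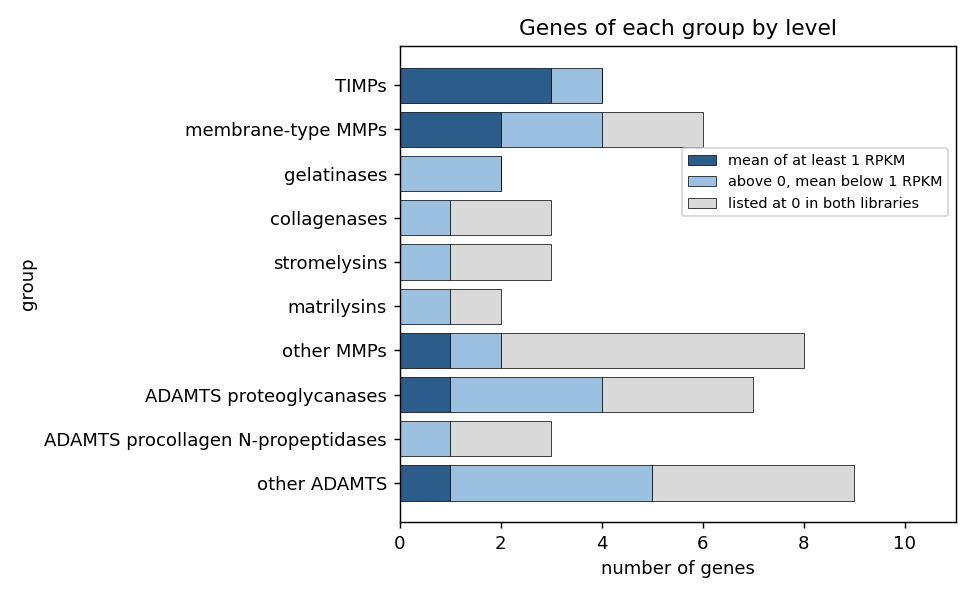
Number of genes in each group of matrix proteases and inhibitors (horizontal bars, counts on the x axis), split by level. All 4 TIMP genes lie above 0, whereas 6 of the 8 other MMPs, 2 of 3 collagenases and 2 of 3 stromelysins are listed at 0 in both libraries.

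TIMP1 (chrX:47582291-47586791, plus strand, GRCh38) was the highest of these genes in both libraries. This inhibitor of most soluble MMPs stood at 67.4 RPKM in control (2360 reads) and 62.9 with clusterin (1911 reads), and ranked 670th of all genes by mean level. TIMP1 made up 71.5% of the summed TIMP level in control and 71.0% with clusterin. TIMP2 (chr17:78852977-78925390, minus strand), which inhibits MMPs and also helps MMP14 to activate the gelatinase MMP2, stood at 20.4 and 18.4 RPKM (2847 and 2234 reads). TIMP2 thus had more reads than TIMP1 at a lower level per length, since the recovered transcript lengths were 3655 bases for TIMP2 and 916 for TIMP1. Both inhibitors were lower in the clusterin library. The ratio was 0.933 (0.878 to 0.992) for TIMP1 and 0.904 (0.855 to 0.956) for TIMP2, and both intervals include the general ratio of 0.953.

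TIMP3 (chr22:32800816-32863041, plus strand), the matrix-bound inhibitor of MMPs, ADAMs and ADAMTS proteases, went the other way. It stood at 5.74 RPKM in control and 6.43 with clusterin (1205 and 1171 reads), a ratio of 1.12 (1.03 to 1.21) that lies above the general ratio. Of the 662 measured genes of like level, 94.9% lay below TIMP3 on the scale log2((clusterin RPKM + 1)/(control RPKM + 1)), where it stood at 0.14. TIMP4, an inhibitor with a narrower tissue range, stood at 0.785 and 0.886 RPKM (49 and 48 reads), and its ratio was 1.13 (0.742 to 1.72). TIMP1, TIMP3 and TIMP4 lie within synapsin genes, on the opposite strand, and whether the counting used strand is not given in the sources used here. These hosts held almost no reads: SYN1, around TIMP1, had 4 and 8 reads, and SYN2 and SYN3 were listed at 0.

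Promoter sequences of TIMP1 and TIMP3 are shown because the members differ widely in level and their start regions differ in base composition too. RefSeq promoter windows (GRCh38.p14, 250 bases before to 50 after the start) were matched for 27 of the 47 genes, TIMP1, TIMP3 and TIMP4 among them. G and C made up 65.0% of the TIMP1 window, 72.7% of the TIMP3 window and 64.0% of the TIMP4 window, against a median of 62.3% over 22199 windows of protein-coding genes. Below, the 250 bases before RefSeq's start, which can differ from the start in the deposited table, are written 5′ to 3′ on the gene's strand. Capitals mark 4 motifs searched on both strands: the GC box GGGCGG, the TATA box TATAAA, the CCAAT box CCAAT, and the AP-1 site as TGAGTCA or TGACTCA; none of these words contains another. The TIMP1 stretch is chrX:47582186-47582435, plus strand, with 64.8% G and C and 2 GC boxes. The TIMP3 stretch is chr22:32801455-32801704, plus strand, with 72.4% G and C, 5 GC boxes and 1 CCAAT box.
TIMP1: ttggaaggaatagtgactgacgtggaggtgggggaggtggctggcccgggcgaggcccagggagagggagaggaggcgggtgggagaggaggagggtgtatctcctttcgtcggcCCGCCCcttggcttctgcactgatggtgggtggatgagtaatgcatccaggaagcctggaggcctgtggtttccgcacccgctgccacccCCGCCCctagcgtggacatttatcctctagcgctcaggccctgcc
TIMP3: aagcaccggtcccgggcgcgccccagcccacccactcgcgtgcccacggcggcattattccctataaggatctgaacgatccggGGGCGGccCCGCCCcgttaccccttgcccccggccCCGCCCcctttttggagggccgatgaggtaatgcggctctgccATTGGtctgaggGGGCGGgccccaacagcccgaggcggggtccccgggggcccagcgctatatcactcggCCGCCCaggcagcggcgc

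**Figure D2:**
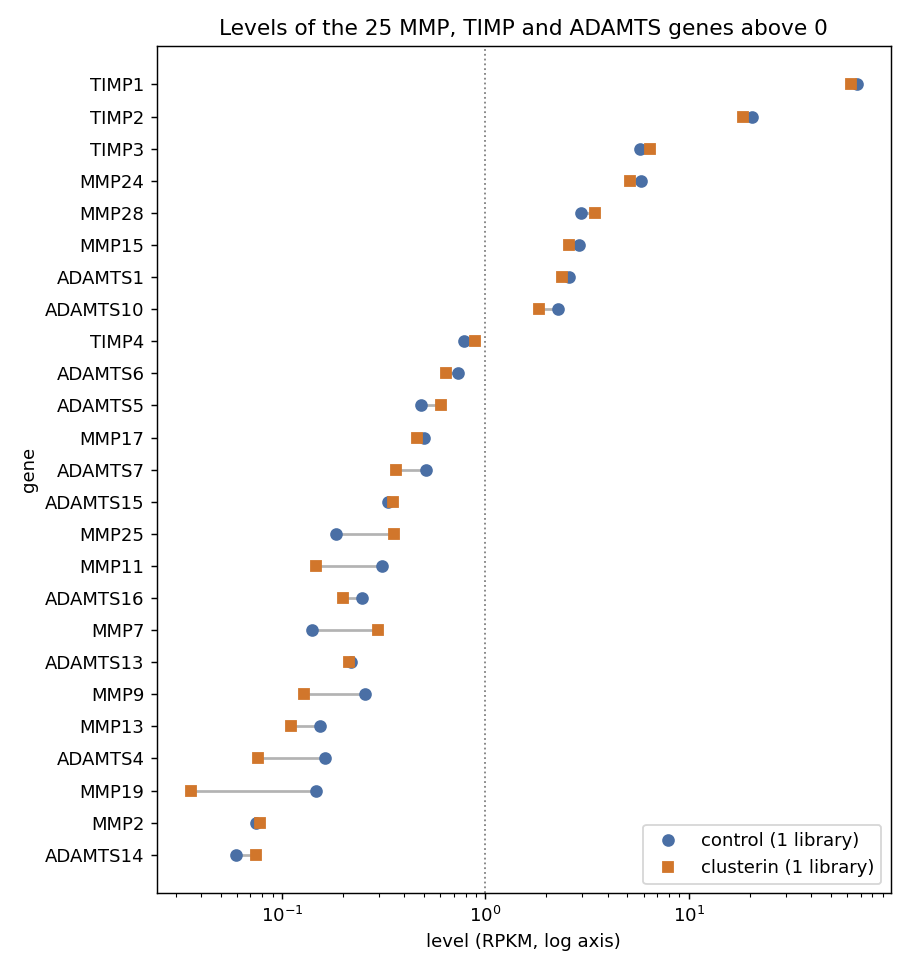
Level in RPKM (log axis) of the 25 MMP, TIMP and ADAMTS genes above 0, in the control library (circles) and the clusterin library (squares), ordered by mean; the dotted line marks 1 RPKM. TIMP1 and TIMP2 lie far above the rest, and the widest gaps between the libraries are in genes below 1 RPKM such as MMP19.

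Of the MMP and ADAMTS genes, the membrane-type MMP24 and MMP15 and the secreted MMP28 were highest. MMP24 (chr20:35226736-35277663, plus strand), a membrane-type MMP (MT5-MMP) known mainly from the nervous system, stood at 5.86 RPKM in control and 5.17 with clusterin (971 and 743 reads), and made up 27.8% and 26.4% of the summed protease level. Its ratio was 0.882 (0.800 to 0.971), lower with clusterin, with an interval that includes the general ratio. The last 1331 bases of the MMP24 gene overlap its antisense gene MMP24-AS1, which stood at 6.94 and 7.32 RPKM. Without the strand setting, reads of the 2 genes in that stretch cannot be told apart. MMP15 (chr16:58025378-58046901, plus strand), another membrane-type enzyme (MT2-MMP), stood at 2.89 and 2.59 RPKM (490 and 381 reads). Its ratio was 0.896 (0.782 to 1.03). Both genes were slightly lower in the clusterin library, and neither interval lies apart from the general ratio.

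MMP28 (chr17:35756249-35795707, minus strand), epilysin, a secreted enzyme of resting and healing epithelium, was the only measured protease that was higher with clusterin. It stood at 2.94 RPKM in control and 3.45 with clusterin (320 and 326 reads). Its ratio was 1.17 (1.003 to 1.37), above the general ratio, and 93.8% of 663 genes of like level lay below it on the log2 scale, where it stood at 0.18. MMP28 made up 13.9% of the summed protease level in control and 17.6% with clusterin.

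The sequences before the 2 measured membrane-type genes hold more G and C than the median of 62.3% over the promoter windows of protein-coding genes. The MMP24 stretch is chr20:35226440-35226689, plus strand, with 77.6% G and C and 3 GC boxes. The MMP15 stretch is chr16:58025504-58025753, plus strand, with 74.8% G and C, 5 GC boxes and 1 CCAAT box.
MMP24: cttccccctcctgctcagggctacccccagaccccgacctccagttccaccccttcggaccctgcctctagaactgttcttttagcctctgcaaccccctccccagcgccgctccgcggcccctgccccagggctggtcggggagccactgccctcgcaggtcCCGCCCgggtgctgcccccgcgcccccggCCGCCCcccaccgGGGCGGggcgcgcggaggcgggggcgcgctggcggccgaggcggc
MMP15: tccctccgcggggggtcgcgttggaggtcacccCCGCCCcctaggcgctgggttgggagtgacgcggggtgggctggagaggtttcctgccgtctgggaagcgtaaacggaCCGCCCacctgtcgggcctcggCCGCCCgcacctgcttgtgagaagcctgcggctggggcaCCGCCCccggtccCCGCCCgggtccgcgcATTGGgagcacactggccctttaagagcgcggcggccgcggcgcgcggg

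The other membrane-type genes were low or listed at 0. MMP17, a GPI-anchored enzyme (MT4-MMP), stood at 0.4996 and 0.463 RPKM, from 46 and 37 reads. MMP25, the GPI-anchored MT6-MMP known from leukocytes, stood at 0.184 RPKM in control and 0.357 with clusterin, from 25 and 42 reads, a ratio of 1.94 (1.15 to 3.32). That interval lies above the general ratio. Of the 6 leukocyte markers, PTPRC, ITGAM, CD3E and MS4A1 were listed at 0 in both libraries, CD68 stood at 6.17 and 5.93 RPKM, and CD14 had 6 and 10 reads, a ratio of 1.92 (0.633 to 6.43). Their part in the MMP25 ratio was not tested. MMP14 and MMP16 were listed at 0. MMP14, the chief activator of MMP2 at the cell surface, is thus listed with no level, and its 0 has the same limit as that of RPS18.

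The classical secreted MMPs were scarce. The gelatinases MMP2 and MMP9, which cut denatured collagen and basement membrane collagen, were named after their values were seen: MMP2 had 11 and 10 reads (0.0749 and 0.0784 RPKM), and MMP9 had 23 and 10 (0.257 and 0.129 RPKM), with a ratio of 0.501 (0.213 to 1.09). Of the collagenases only MMP13 was above 0, with 16 and 10 reads, and MMP1 and MMP8 were at 0. Of the stromelysins MMP11, an enzyme activated by furin inside the cell, was above 0, with 0.312 and 0.147 RPKM from 27 and 11 reads, a ratio of 0.4695 (0.210 to 0.978); MMP3 and MMP10 were at 0. The matrilysin MMP7 had 6 and 11 reads, 0.140 and 0.296 RPKM, a ratio of 2.11 whose interval of 0.716 to 6.96 includes 1, and MMP26 was at 0. MMP19, a secreted enzyme outside these classes, stood at 0.146 RPKM in control and 0.0355 with clusterin, from 19 and 4 reads, a ratio of 0.243 (0.0600 to 0.730). MMP19 shares 817 bases with TMEM198B on the other strand, a gene with 131 and 92 reads. The other MMPs MMP12, MMP20, MMP21, MMP23A (a pseudogene), MMP23B and MMP27 were at 0.

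Of the 13 MMP genes listed at 0, 7 lie in 1 cluster. On chromosome 11, 9 MMP genes lie between bases 102520508 and 102955734 (GRCh38), a span of 435 kb, all on the minus strand in the order MMP7, MMP20, MMP27, MMP8, MMP10, MMP1, MMP3, MMP12 and MMP13. The 7 inner genes were listed at 0 in both libraries, and the 2 outermost genes, MMP7 and MMP13, had 17 and 26 reads over both. Promoter windows of 5 of these genes were matched, MMP7, MMP8, MMP10, MMP20 and MMP27. Their 300 bases held 33.3% to 44.3% G and C and 2 to 4 CG dinucleotides, and the TATA box was in 4 of the 5, against 9.47% of 22199 windows of protein-coding genes. The GC box was in none of the 5, against 56.3% of those windows. The AP-1 site, bound by FOS and JUN proteins, was in the MMP7 window only, against 4.01%.

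The 250 bases before 2 of these genes show the contrast with the inhibitors and membrane-type genes above. The MMP7 stretch is chr11:102530748-102530997, minus strand, with 33.6% G and C, 1 AP-1 site, 1 TATA box and 1 CCAAT box. The MMP10 stretch is chr11:102780629-102780878, minus strand, with 34.4% G and C, 1 TATA box and 1 CCAAT box. These matches are descriptions of the letters, not of bound sites.
MMP7: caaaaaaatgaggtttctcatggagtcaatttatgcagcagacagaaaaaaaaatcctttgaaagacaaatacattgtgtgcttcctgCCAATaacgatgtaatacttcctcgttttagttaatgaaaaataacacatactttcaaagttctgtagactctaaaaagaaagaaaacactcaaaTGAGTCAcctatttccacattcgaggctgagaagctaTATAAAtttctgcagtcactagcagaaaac
MMP10: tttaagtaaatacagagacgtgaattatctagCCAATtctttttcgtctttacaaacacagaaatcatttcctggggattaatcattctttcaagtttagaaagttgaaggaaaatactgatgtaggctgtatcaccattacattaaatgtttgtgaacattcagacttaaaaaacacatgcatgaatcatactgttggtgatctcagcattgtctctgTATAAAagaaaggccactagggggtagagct

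Base composition did not follow level gene by gene, among MMP or ADAMTS genes. The 5 measured genes with a matched window, TIMP1, TIMP3, MMP24, MMP15 and ADAMTS10, had 65.0% to 80.0% G and C and a GC box each. The 7 ADAMTS genes listed at 0 with a matched window had 65.0% to 80.3%, and each also held a GC box. The GC box was in 56.3% of windows of protein-coding genes. MMP23B, at 0, had 75.0% G and C and 2 GC boxes. MMP7 and ADAMTS6, both above 0, had 35.7% and 52.0% and no GC box. Outside the chromosome 11 cluster, the 22 matched windows had a median of 71.7% G and C, with MMP26, also at 0, lowest at 39.0%.

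**Figure D3:**
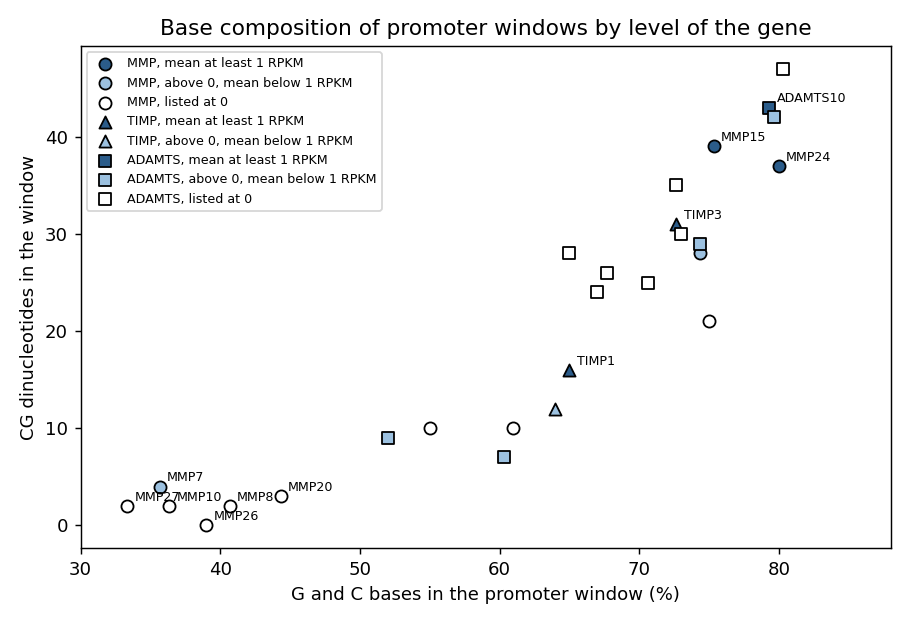
CG dinucleotides (y axis, count) against G and C bases (x axis, percent) in the 300-base promoter windows of 27 genes; marker shape gives the family and fill the level class. The windows of the chromosome 11 cluster and of MMP26 lie at the lower left with at most 4 CG dinucleotides, while ADAMTS genes listed at 0 lie among the measured genes at the upper right. The windows of MMP26, MMP21 and ADAMTS13 lie far from the deposited starts of these genes.

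Among the ADAMTS genes, 2 of 19 were measured. ADAMTS1 (chr21:26836287-26845409, minus strand), a proteoglycanase that cuts versican and aggrecan, stood at 2.59 RPKM in control and 2.38 with clusterin (461 and 367 reads), and its ratio was 0.918 (0.798 to 1.05). ADAMTS10 (chr19:8580240-8610753, minus strand), which binds fibrillin-1 and supports microfibrils, stood at 2.28 and 1.84 RPKM, from 370 and 258 reads. Its ratio of 0.804 (0.683 to 0.945) was the lowest of the 8 measured genes and lies below the general ratio. Of 662 genes of like level, 16.3% were lower still on the log2 scale, where ADAMTS10 stood at -0.21.

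Another 8 ADAMTS genes lay above 0 with means below 1 RPKM. ADAMTS6, a relative of ADAMTS10, was the highest of them at 0.734 and 0.639 RPKM, from 204 and 154 reads. ADAMTS5 (chr21:26917912-26967120, minus strand), a main aggrecanase of cartilage, stood at 0.482 RPKM in control and 0.605 with clusterin, from 178 and 194 reads, a ratio of 1.26 (1.02 to 1.55) that lies above the general ratio. ADAMTS7, which cuts the cartilage protein COMP, stood at 0.5097 and 0.362 RPKM, from 107 and 66 reads, a ratio of 0.711 (0.515 to 0.975). ADAMTS4, the other main aggrecanase, stood at 0.163 and 0.0765 RPKM; it had 27 and 11 reads, the same numbers as MMP11, and therefore the same ratio. The remaining genes above 0 were ADAMTS13, ADAMTS14, ADAMTS15 and ADAMTS16, with 25 to 138 reads and intervals that include 1.

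The procollagen N-propeptidases ADAMTS2 and ADAMTS3, which trim fibrillar procollagens, were listed at 0, and their relative ADAMTS14 had 12 and 13 reads. ADAMTS8, ADAMTS9, ADAMTS12, ADAMTS17, ADAMTS18, ADAMTS19 and ADAMTS20 were also at 0.

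No measured gene of these families differed much between the libraries. On the log2(RPKM + 1) scale 0 of the 8 passed 2-fold, against 0.219% of all measured genes, and in 0 was the higher library at least 25% above the lower, against 4.65%. The values ran from -0.21 for ADAMTS10 to 0.18 for MMP28, with a median of -0.11 against -0.06 over all measured genes. Of the 8, 6 lay below 0, near the 70.2% of all measured genes that did. Only TIMP3 and MMP28 lay above 0.

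**Figure D4:**
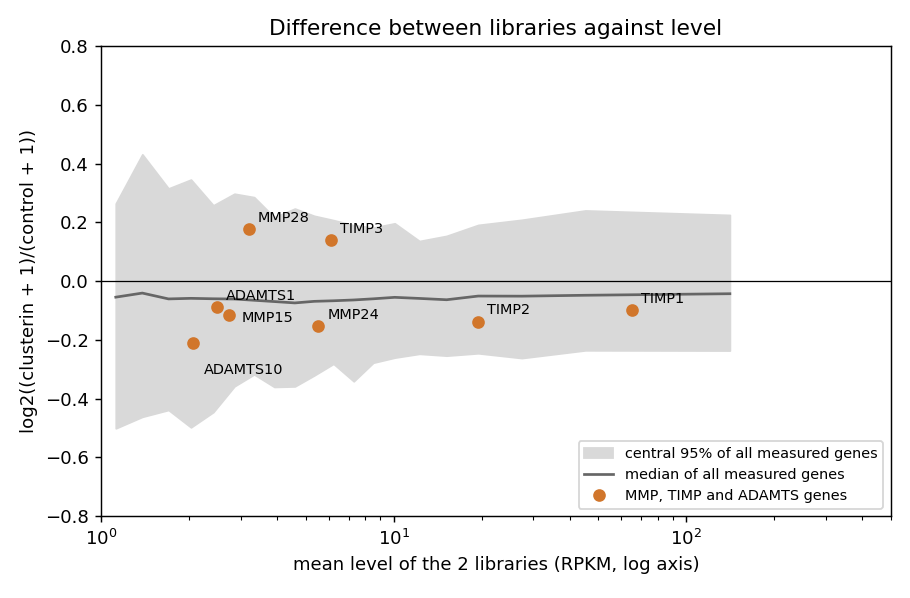
Difference between the libraries, log2((clusterin RPKM + 1)/(control RPKM + 1)), against mean level (RPKM, log axis) for the 8 measured genes (points), with the median (line) and the central 95% (grey band) of all measured genes in 20 bins of level. All 8 points lie inside the band, TIMP3 and MMP28 near its upper part.

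Ratios of at least 2-fold among these genes occurred only below 1 RPKM, where reads were few. Of the 17 genes there, 4 had at least a 2-fold ratio of RPKM, MMP19, MMP11 and ADAMTS4 lower and MMP7 higher with clusterin, against a background of 20.0% of 7281 genes of that class. The counting interval excluded 1 for 12 of the 25 genes above 0, against 24.5% of all genes with recovered reads: 4 were higher, against 3.94%, and 8 lower, against 20.6%. Set against the general ratio of 0.953, a reference added after the values were seen, the interval excluded it for 6 of 25, against 18.0%. The 4 higher with clusterin, against 8.91%, were TIMP3, MMP28, ADAMTS5 and MMP25, and the 2 lower, against 9.11%, were ADAMTS10 and MMP19. These shares mix genes of few and many reads. With 500 to 6000 reads, the interval excluded the general ratio for 3 of the 8 genes, against 23.2% of all such genes. With 10 to just under 500 reads, it did so for 3 of 17, against 12.0%. A q below 0.05 stood in the authors' deposited table for 3 of the 25 genes, against 12.0% of all genes above 0: 1 higher with clusterin, against 1.63%, and 2 lower, against 10.4%. In the authors' deposited table q was 0.0485 for TIMP3, which was higher, and 0.00658 for TIMP2 and 0.0421 for MMP19, which were lower; such a q compares 2 libraries, not the conditions.

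**Figure D5:**
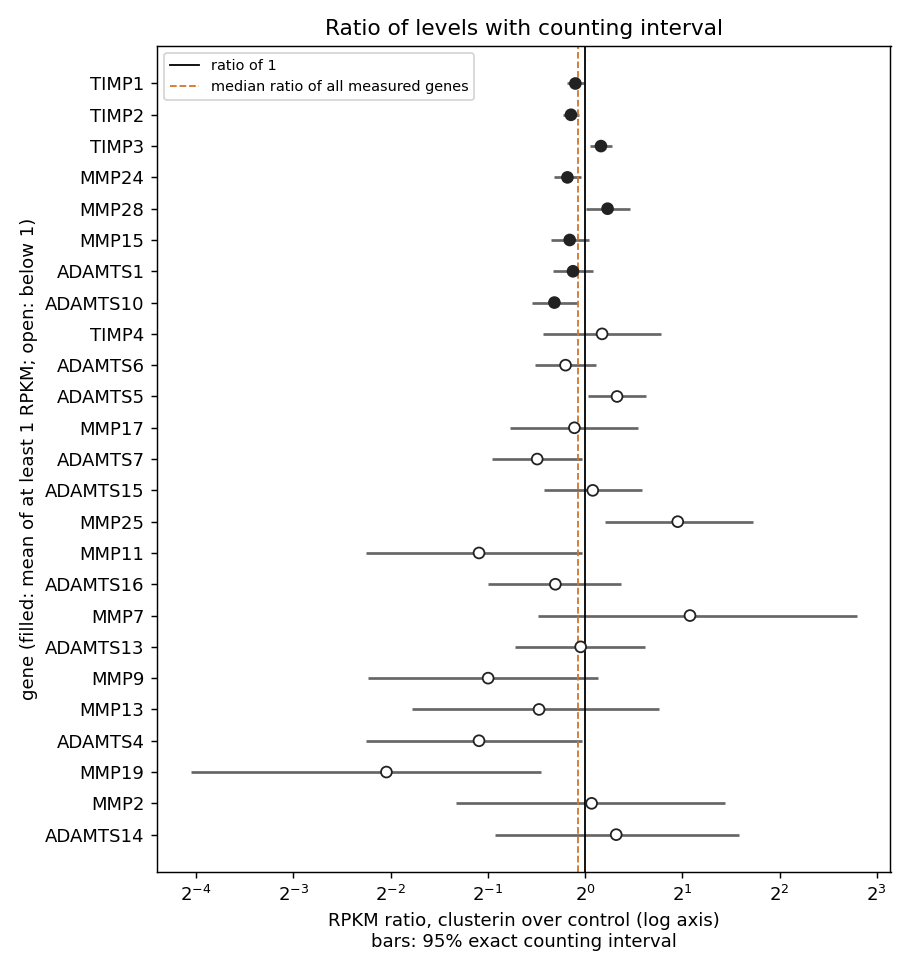
Ratio of RPKM, clusterin over control (log axis), for the 25 genes above 0, with 95% exact counting intervals as bars; filled points have a mean of at least 1 RPKM, the solid line marks a ratio of 1 and the dashed line the median ratio of all measured genes, 0.953. Intervals are narrow for TIMP1, TIMP2 and TIMP3 and wide for genes with few reads such as MMP7 and MMP19.

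The wider protease system was described with 7 lists of 62 genes, all in the table, of which 35 were measured. THSD4 had been listed a second time under its other name, ADAMTSL6, and was counted once. In none of the 35 was the higher library 25% above the lower on the log2(RPKM + 1) scale, 27 lay below 0, against 70.2% of all measured genes, and their median was -0.05 against -0.06. Proprotein convertases, which activate membrane-type MMPs, ADAMTS enzymes and MMP11, were led by FURIN at 12.7 RPKM in control and 12.4 with clusterin and PCSK7 at 10.8 and 10.99. Among plasminogen activation genes, the urokinase receptor PLAUR stood at 18.2 and 18.7 RPKM and the protease nexin SERPINE2 at 6.55 and 7.23, with PLG, plasminogen itself, at 0; 3 of 4 measured genes of this list lay above 0. Among other MMP regulators, BSG, the MMP inducer basigin, stood at 165 and 164 RPKM, and CD44, a docking receptor for MMPs, at 17.9 and 16.5. The 9 membrane ADAM proteases summed to 114 RPKM in control and 108 with clusterin, against 13.5 and 12.8 for the 24 MMP genes. ADAM15 stood at 63.9 and 61.2 RPKM and ADAM9 at 25.6 and 23.6, and all 4 measured ADAM genes lay below 0, as did 70.2% of all measured genes.

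ADAMTS-like proteins, which lack the protease domain, were represented by THSD4 at 1.71 and 1.54 RPKM and ADAMTSL5 at 1.40 and 1.002, with PAPLN (papilin) at 1.26 and 0.935. All 3 measured genes of this list lay below 0, as did 70.2% of all measured genes. Their median was -0.23, against -0.06 over all measured genes. As plain ratios of RPKM, ADAMTSL5 stood at 0.716 (0.548 to 0.930) and PAPLN at 0.740 (0.610 to 0.895). Both intervals lie below the general ratio, as did those of 9.11% of all genes with recovered reads. That share mixes genes of few and many reads, and no such share was taken for genes of like depth. The interval of THSD4, 0.902 (0.797 to 1.02), includes the general ratio. The AP-1 subunits, transcription factors that bind many MMP promoters, were all above 0, with JUNB at 87.2 and 86.4 RPKM and JUND at 46.9 and 44.8; 3 of 6 measured subunits lay below 0. Of 20 matrix substrates 10 were measured and 9 of these lay below 0, against the same 70.2%. The fibrillins FBN2, with a ratio of 0.898 (0.867 to 0.931), and FBN1, with 0.889 (0.846 to 0.934), had intervals below the general ratio. Such intervals occurred for 9.11% of all genes with recovered reads, a share that mixes genes of few and many reads. FBN2 had 7026 and 5477 reads and FBN1 3634 and 2804. In either direction, intervals missed the general ratio for 23.2% of genes with 500 to 6000 reads, against 18.0% of all. No share was taken for genes as deep as the fibrillins, so the 9.11% cannot show that their intervals are rare. The intervals of the other measured substrates include the general ratio. The small leucine-rich proteoglycans LUM, at 46.2 and 45.7 RPKM, and DCN, at 25.9 and 24.9, led that list, while of the proteoglycans cut by aggrecanases ACAN, VCAN and NCAN were listed at 0 and BCAN, brevican, stood at 1.70 and 1.80 RPKM. The ADAMTS13 substrate VWF had 3 and 4 reads.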

How the data were processed

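For each gene the authors deposited a level in either library together with the log2 fold change, p-value and q-value of their comparison. The submitters' processing notes name Bowtie, TopHat and Cuffdiff and the build hg19; tool versions, and whether strand was used, are not given in the sources used here. No unit stands in the file headers. The deposited levels were read as RPKM because, at 1 total per library, level times length was whole within 0.02 for 482 of 523 small RNA genes, and 474 of them had a deposited p-value within 2% of the Audic-Claverie p computed from those reads. Elsewhere a length from 200 to 20000 bases was sought that gave whole reads and the deposited p, which succeeded in 19413 of 20642 genes above 0 (94.0%), all 25 members above 0 among them. The method was tested on simulated data, where it recovered reads for a smaller share of genes than this.

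Libraries were compared by log2((clusterin RPKM + 1)/(control RPKM + 1)) for genes whose mean reached 1 RPKM; it understates the change of low genes. Without molecular identifiers, PCR copies count as reads, so intervals cover counting error only. No test between groups was made. Positions in the table matched RefSeq GRCh38 at the start or end within 2000 bases for all 47 members. The members and lists were chosen with earlier results of these data known. The text names every member, and gives values for those whose mean reached 1 RPKM, for the 3 highest below it and for those whose interval excludes 1. Of each other list it names the 2 highest genes and any measured gene past 25% on the log2(RPKM + 1) scale. On that scale no gene of these lists passed, although some differed by more as a plain ratio of RPKM. Values of other genes, and the 6 sequences printed, were chosen after the values were seen. Other pseudocounts, filters and scalings were tried. Python 3.11.15, scipy 1.17.1 and pandas 2.3.3 were used.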

Additional observations from a re-analysis of the deposited data

How the results depend on the processing

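The 8 measured genes kept their direction after rescaling the control by 0.953, so that the median difference of all measured genes was 0, and after quantile normalization. A pseudocount of 0.1 or 5 RPKM was also tried, which can alter the size of a difference but never its direction. All 32 of these values moved by less than the counting interval. TIMP3 ran from 0.09 to 0.20 and MMP28 from 0.09 to 0.24, while TIMP1 ran from -0.10 to -0.03, TIMP2 from -0.14 to -0.07 and ADAMTS10 from -0.30 to -0.09. The median of the measured genes lay between -0.13 and -0.05, also with a mean of at least 0.1 or 5 RPKM or no filter. Counts past 2-fold and past 25% stayed at 0 under these alternatives. With the lower filter or none, 1 RPKM was still added, which shrinks the ratios of genes below 1 RPKM. The counts of 0 there therefore say little about those genes. A ratio of RPKM with no pseudocount over the 25 genes above 0 was chosen after seeing the data. By that ratio 4 passed 2-fold, all below 1 RPKM, where 20.0% of 7281 genes did. By the same ratio 9 differed by at least 25% of the lower library. No share of all genes was taken for that 25% rule, so the 9 cannot be called many or few. TIMP1 held 36.5% of the TIMP reads in control when reads were not divided by length, against 71.5% of the level, and MMP24 held 27.9% of protease reads against 27.8%. By reads, an alternative added after seeing the data, the ratio of the TIMP sum to the protease sum was 1.86 in control and 1.93 with clusterin, against 4.47 and 4.53 by level. No paired analysis was possible because each group held 1 library. Depth limits the 17 genes below 1 RPKM, of which 5 had fewer than 30 reads over both libraries.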

Other observations

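2 pairs of ADAMTS genes lie next to each other in the table. On chromosome 21, ADAMTS1 and ADAMTS5 are 72.5 kb apart on the same strand, with ratios of 0.918 and 1.26 and intervals that overlap narrowly (0.798 to 1.05 and 1.02 to 1.55). On chromosome 11, ADAMTS8 and ADAMTS15 are 20.3 kb apart on opposite strands; ADAMTS8 was listed at 0 in both libraries and ADAMTS15 stood at 0.332 RPKM in control and 0.350 with clusterin, from 72 and 66 reads. These pairs were chosen after their values were seen.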
